A study of Homo sapiens with 12 samples.

Results

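The metallothionein genes *MT1A*, *MT1E*, *MT1F*, *MT1G*, *MT1M*, *MT1X* and *MT2A* were followed in A549 cells after depletion of RNF113A, Cisplatin treatment or both. They were taken by symbol from the gene counts and make up 7 of the 26334 genes listed. A549 is a human lung adenocarcinoma line and RNF113A is an E3 ligase and spliceosome protein. All cells had been infected with lentivirus, with a non-target shRNA (shControl) or with 1 shRNA construct against RNF113A (shRNF113A), and had been selected for 4 days in 1 µg/ml puromycin. Each population was left untreated or was exposed to 25 µg/ml Cisplatin for 20 h, and each of the 4 groups had 3 libraries. With 1 construct per arm, an effect of losing RNF113A and an effect of that construct cannot be told apart.

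Metallothioneins are small cysteine-rich proteins that hold zinc, copper and cadmium ions through their thiol groups. Their genes form a cluster on the long arm of chromosome 16 and are known for induction by metals, glucocorticoids and oxidative stress. The zinc-sensing transcription factor MTF1 binds metal response elements, short motifs repeated in their promoters. The thiol groups also bind platinum, and metallothioneins have therefore long been studied in cells treated with Cisplatin.

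Per the deposited annotation on hg19, the 7 genes lie within 76.0 kb of chromosome 16, from 56642111 to 56718108. *MT2A* (chr16:56642111-56643409) comes first, followed by *MT1E* (chr16:56659387-56661024), *MT1M* (chr16:56666145-56667898), *MT1A* (chr16:56672578-56673999), *MT1F* (chr16:56691606-56694610), *MT1G* (chr16:56700643-56701977) and *MT1X* (chr16:56716336-56718108). *MT1G* is on the minus strand and the other 6 are on the plus strand. Each has a RefSeq transcript of 3 exons.

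Promoter sequence from RefSeq (GRCh38.p14) matched 2 of the 7 genes, *MT2A* and *MT1X*, which are also the most abundant members in these cells. The 250 bases before each gene start are shown because *MT2A* rose in the comparisons that follow while *MT1X* did not. Capitals mark every match, on either strand, to the core of the metal response element, searched as TGCACNC and TGCGCNC. Where a match lies on the opposite strand, the capitals read as its reverse complement. *MT2A* is at chr16:56608334-56608583 and *MT1X* at chr16:56682220-56682469 in that build, both on the plus strand.
MT2A: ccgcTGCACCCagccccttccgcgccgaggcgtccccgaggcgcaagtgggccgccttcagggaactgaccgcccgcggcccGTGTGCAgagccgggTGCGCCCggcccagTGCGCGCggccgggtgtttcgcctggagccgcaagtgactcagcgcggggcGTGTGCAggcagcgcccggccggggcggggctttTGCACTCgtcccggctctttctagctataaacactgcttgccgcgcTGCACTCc
MT1X: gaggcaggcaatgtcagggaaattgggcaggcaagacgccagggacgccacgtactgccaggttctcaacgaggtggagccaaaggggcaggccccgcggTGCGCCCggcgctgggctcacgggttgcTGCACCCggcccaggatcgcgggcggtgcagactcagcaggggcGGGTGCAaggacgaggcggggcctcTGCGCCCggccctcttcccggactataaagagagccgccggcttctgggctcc

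The *MT2A* stretch held 7 matches and the *MT1X* stretch held 4. Among related genes *MT1H* held 8 matches and had 0 counts in all libraries. *MT4* held 3 with 0 counts, and *MT1B* held 3 with 7 counts in all. The zinc exporter gene *SLC30A1*, which rose with Cisplatin (below), held 1. Whether the number of matches bears on these levels was not tested. Of 35116 promoters of the same length, 24.8% held at least 1 match and 0.37% held at least 4. A match is a run of letters and does not show that MTF1 was bound there.

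Replicate 2 of both shControl groups stood apart from its group: chi-square per degree of freedom over genes was 63.5 to 96.0 for pairs with these 2 libraries and 4.06 to 18.1 for all other pairs of one group. Values without both libraries, an alternative chosen after seeing the data, are given where they change a result. The libraries held 26220526 to 45721152 read pairs assigned to genes. Levels are given as CPM, counts per 1000000 assigned read pairs after scaling by the trimmed mean of M values (TMM), and a limit of 3 counts corresponded to 0.0656 to 0.114 CPM. *RNF113A*, the targeted gene, was at 20.3, 19.5 and 19.8 CPM in untreated shControl cells and at 15.3, 15.8 and 16.8 CPM in untreated shRNF113A cells, and its fall by 0.31 on the log2 scale passed the test (adjusted p = 0.0247, edgeR). This call for the targeted gene was lost in 4 of 12 fits with 1 library left out, without untreated shControl replicate 1 or 3 or untreated shRNF113A replicate 1 or 2, where the adjusted p was 0.0563 to 0.094 (edgeR). After Cisplatin it was at 29.4 ± 1.95 and 26.7 ± 2.88 CPM, a log2 difference of -0.14 (SE 0.09, adjusted p = 0.233, edgeR). The epithelial keratins KRT8 and KRT18 were abundant in every group. *KRT19*, a keratin of the same list, was low, at 0.951 ± 0.229 CPM in untreated and 1.28 ± 0.624 CPM in treated shControl cells. In shRNF113A cells it was at 3.21 ± 1.97 and 3.06 ± 1.61 CPM (SD, n = 3). Nearly all of the epithelial sum below came from KRT8 and KRT18. The summed level of 8 leukocyte, endothelium and fibroblast markers was 7.57 to 40.1 CPM, against 3399 to 14111 CPM for 5 epithelial markers. *COL1A1*, a collagen gene of fibroblasts, made most of the highest sum, at 34.8 CPM in untreated shControl replicate 2, while *PTPRC*, *CD3E*, *PECAM1* and *COL1A2* were at no more than 0.315 CPM in any library. *CD14*, a leukocyte marker of that list, was at 1.14 to 4.36 CPM. The highest values of *CDH5* and *PDGFRB* were 0.486 and 0.473 CPM. At an adjusted p under 0.05, 3 of the 5 epithelial markers fell with Cisplatin in shControl cells and 4 in shRNF113A cells (edgeR). Of all tested genes 55.0% and 60.2% passed in these comparisons. *EPCAM*, an epithelial adhesion gene, was at 10.3 ± 7.02 CPM in untreated shControl cells and 92.2 ± 6.18 CPM in untreated shRNF113A cells (SD, n = 3). *CDH1*, an epithelial marker of the same list, went the other way, at 162 ± 31.1 and 113 ± 19.4 CPM (SD, n = 3). By adjusted p, 2 of the 5 rose and 1 fell with depletion in untreated cells, where 27.4% of all tested genes passed. The 2 populations thus differed in lineage markers as well, and the part of these in the metallothionein levels was not tested.

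Of the 7 genes, 3 had enough reads to be tested among the 15352 genes that passed the filter on low counts: *MT2A*, *MT1X* and *MT1F*. They had 30217, 3854 and 568 counts in all over the 12 libraries. *MT1A* had 1 to 5 counts in each library and 36 in all. *MT1E* and *MT1M* had 2 counts each in all, and *MT1G* had 0, so that in any 1 library *MT1G* may lie anywhere up to the limit of 3 counts. For these 4 genes a difference between groups was not detectable at this depth. Counting error alone is covered by that limit.

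Levels can be compared between genes only per length, so CPM was divided by the kilobases of annotated exon. Averaged over the 4 groups, *MT2A* stood at 71.1 CPM per kb, *MT1X* at 10.7, *MT1F* at 1.76 and *MT1A* at 0.218 CPM per kb. By RefSeq transcript length, which the values below do not use, these averages were 168, 21.8, 2.68 and 0.218. The size of the gaps thus depends on the length chosen. In every group these 4 came in the same order with no overlap of single libraries. In untreated shControl cells, for example, *MT2A* was at 38.7 to 51.4, *MT1X* at 10.9 to 13.7, *MT1F* at 1.92 to 3.64 and *MT1A* at 0.0643 to 0.201 CPM per kb. *MT1A* had 1 to 3 counts in these untreated shControl libraries, at or below the limit, so its place below *MT1F* holds but its level is uncertain. *MT1M*, *MT1E* and *MT1G* were at or below the limit and could not be ordered.

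**Figure D1:**
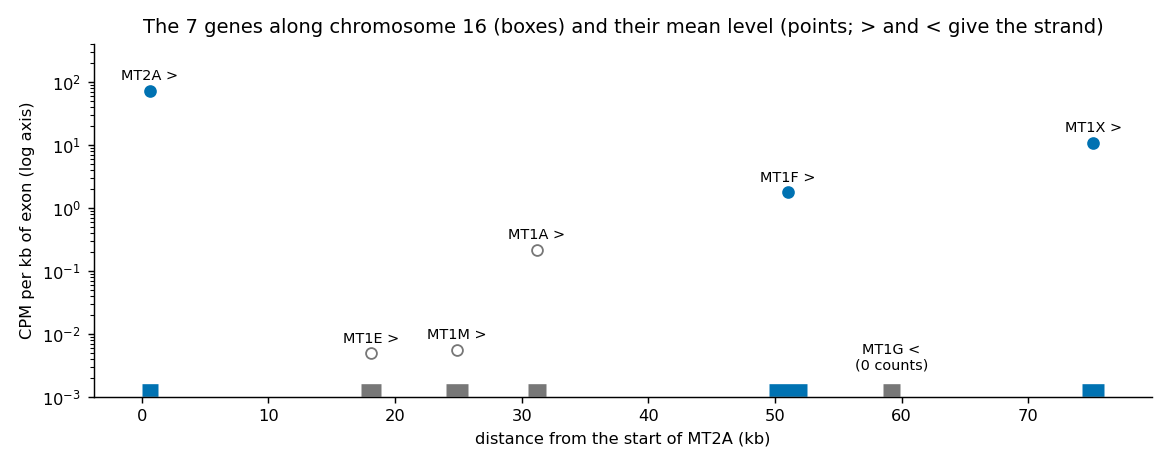
Position of the 7 genes (boxes, distance from the start of MT2A in kb) and their mean level over the 4 groups (points, CPM per kb of exon, log axis). Filled points are the 3 genes that were tested, open points are genes of a few counts, and MT1G had 0 counts; MT2A at 71.1 CPM per kb and MT1X at 10.7 CPM per kb lie at the 2 ends of the row.

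Near-identical copies could split reads between members. Of all 73-base windows of the RefSeq transcript, the length to which reads had been trimmed, none of those of *MT2A*, *MT1F* and *MT1A* occurred elsewhere in the genome or in transcripts of other genes. For *MT1X* 37% of the windows did, for *MT1G* 7.21%, for *MT1M* 2.72% and for *MT1E* 1.61%. The level of *MT1X* is therefore less certain than that of *MT2A*. Strand was not a source of doubt, since 99.9% to 100% of reads at the members were on the strand of the gene.

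*MT2A*, the most widely expressed metallothionein, rose with Cisplatin and rose with RNF113A depletion. In untreated shControl cells its 3 libraries were at 40.0, 38.3 and 50.9 CPM. In Cisplatin-treated shControl cells they were at 75.3, 65.8 and 77.2 CPM, and in untreated shRNF113A cells at 73.9, 53.9 and 89.4 CPM. In shRNF113A cells with Cisplatin they were at 99.3, 76.8 and 105 CPM. The 3 untreated control libraries were the lowest of all 12 and overlapped with no other group, whereas the other 3 groups overlapped with each other.

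Cisplatin raised *MT2A* in shControl cells from 43.1 ± 6.84 to 72.8 ± 6.06 CPM (SD, n = 3), a log2 fold change of 0.76 (SE 0.18, adjusted p = 0.00299, edgeR), or 1.69-fold with a 95% interval of 1.30 to 2.21. Depletion of RNF113A in untreated cells raised it to 72.4 ± 17.8 CPM, by 0.75 on the log2 scale (SE 0.18, adjusted p = 0.00823, edgeR), or 1.68-fold (1.29 to 2.19). Both increases were short of 2-fold. These 2 comparisons share the untreated shControl libraries.

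On top of the other factor the estimates were smaller and missed the threshold. In shRNF113A cells *MT2A* stood 1.30-fold higher with Cisplatin than without (0.995 to 1.69, adjusted p = 0.0835, edgeR), at 93.7 ± 15 CPM (SD, n = 3). In Cisplatin-treated cells it stood 1.29-fold higher with depletion than without (0.989 to 1.68, adjusted p = 0.110, edgeR). The difference between the 2 Cisplatin responses, the interaction, was -0.38 on the log2 scale with a 95% interval of -0.92 to 0.16 (adjusted p = 0.406, edgeR), so a smaller response in depleted cells was not shown. Within each replicate number the value with both factors was the higher one in 3 of 3 pairs of either comparison. With the replicate number as a block both passed, at an adjusted p of 0.0047 for Cisplatin in shRNF113A cells and 0.0122 for depletion in treated cells (edgeR). Over 9779 genes, however, equal numbers did not deviate together between the 2 treated groups (r = -0.197, 0.091 and -0.017). The block therefore has no such basis for depletion in treated cells. Cisplatin in shRNF113A cells also passed without both shControl replicate 2 libraries (log2 change 0.37, adjusted p = 0.0317, edgeR). Those 2 libraries are in neither group compared and enter through the shared estimate of the spread, the filter and the scaling. When each factor was averaged over the other in an additive model, as the study modelled them, *MT2A* rose 1.48-fold with Cisplatin (adjusted p = 0.00178, edgeR) and 1.47-fold with depletion (adjusted p = 0.00384, edgeR).

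*MT1X*, at the far end of the cluster, showed no increase that passed the test. Its libraries were at 10.7, 8.99 and 11.3 CPM in untreated shControl cells and at 10.1, 6.30 and 9.34 CPM after Cisplatin. In shRNF113A cells they were at 9.16, 6.67 and 9.10 CPM untreated and at 7.36, 6.61 and 9.88 CPM with Cisplatin. All 4 groups overlapped. The fold change with Cisplatin was 0.83 in shControl cells (95% interval 0.612 to 1.13, adjusted p = 0.281, edgeR) and 0.956 in shRNF113A cells (0.70 to 1.30, adjusted p = 0.802, edgeR). With depletion it was 0.804 in untreated cells (0.591 to 1.09, adjusted p = 0.274, edgeR) and 0.925 in treated cells (0.679 to 1.26, adjusted p = 0.681, edgeR). Without both shControl replicate 2 libraries *MT1X* fell with depletion in untreated cells by 0.41 on the log2 scale (adjusted p = 0.0487, edgeR) and in the additive model by 0.35 (adjusted p = 0.0266, edgeR). The intervals over all 12 libraries exclude a change of *MT1X* by 1.69-fold upward, the estimate for *MT2A* with Cisplatin.

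*MT1F*, the least abundant of the 3, went the other way. Untreated shControl cells held 51, 105 and 68 counts, or 1.41, 2.67 and 1.80 CPM, and Cisplatin-treated shControl cells held 40, 40 and 33 counts, or 1.05, 0.962 and 0.702 CPM. Every treated library lay below every untreated one. The gene fell by 1.12 on the log2 scale (SE 0.29, adjusted p = 0.00521, edgeR), to 0.46 of its untreated level with an interval of 0.299 to 0.707. Without untreated shControl replicate 2, which has the highest value and also stands apart in *COL1A1*, the fall was 0.83 on the log2 scale (adjusted p = 0.0184, edgeR), no longer 2-fold. Without both shControl replicate 2 libraries it was -0.89 (adjusted p = 0.0132, edgeR), and without treated shControl replicate 3 it was -0.95 (adjusted p = 0.0286, edgeR).

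In shRNF113A cells *MT1F* was at 1.40, 1.08 and 1.66 CPM untreated and at 1.07, 0.711 and 1.01 CPM with Cisplatin. Here too the treated libraries lay below the untreated ones, but the fold change of 0.674 did not pass (0.43 to 1.06, adjusted p = 0.117, edgeR). Depletion gave a fold change of 0.701 in untreated cells (0.46 to 1.07, adjusted p = 0.195, edgeR) and of 1.03 in treated cells (0.651 to 1.62, adjusted p = 0.927, edgeR). In the additive model *MT1F* fell by 0.86 on the log2 scale with Cisplatin (adjusted p = 0.00325, edgeR).

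**Figure D2:**
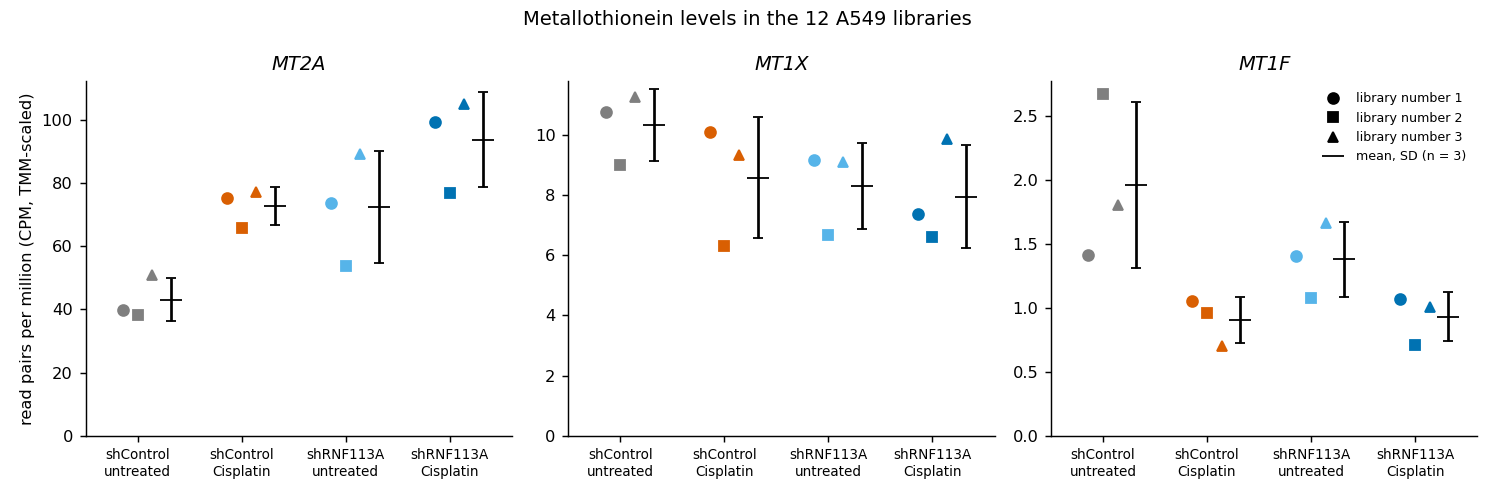
CPM of MT2A, MT1X and MT1F in each library by group, with marker shape giving the library number and the bar the mean and SD of 3 libraries. MT2A is lowest in untreated shControl cells (38.3 to 50.9 CPM), MT1X overlaps across all groups, and MT1F is lower in treated than in untreated libraries of each population.

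The library number moved with these levels. In 4 of 4 groups replicate 2 had the lowest *MT2A* and the lowest *MT1X*, and in 4 of 4 groups replicate 3 had the highest *MT2A*. The labels do not say whether equal numbers mark a shared culture or day.

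Within a library the balance between members needs no scaling to depth. Untreated shControl cells held 3.72, 4.26 and 4.52 *MT2A* read pairs per *MT1X* read pair. This ratio was 7.46, 10.5 and 8.26 in shControl cells with Cisplatin, 8.07, 8.08 and 9.82 in untreated shRNF113A cells, and 13.5, 11.6 and 10.6 in shRNF113A cells with Cisplatin. The untreated control libraries lay below all others, and the libraries with both factors above all others. The means rose from 4.17 ± 0.409 to 8.72 ± 1.55 with Cisplatin, 8.66 ± 1.01 with depletion and 11.9 ± 1.45 with both (SD, n = 3). The ratio is given as a description, and its difference between groups was not tested.

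*MT2A* made 76.6% to 79.5% of all reads on the 7 genes in untreated shControl cells and 87.0% to 92.0% in the other 9 libraries. The share of *MT1X* was 17.6% to 20.6% in untreated shControl cells and 6.82% to 8.50% with both factors. Summed over all 7 genes, the level was 55.4 ± 7.57 CPM in untreated shControl cells and 82.3 ± 7.95 CPM with Cisplatin. It was 82.1 ± 19.4 CPM with depletion and 103 ± 16.6 CPM with both (SD, n = 3). As the cells were lysed in bulk, more transcript per cell and a larger share of cells with much transcript cannot be told apart.

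**Figure D3:**
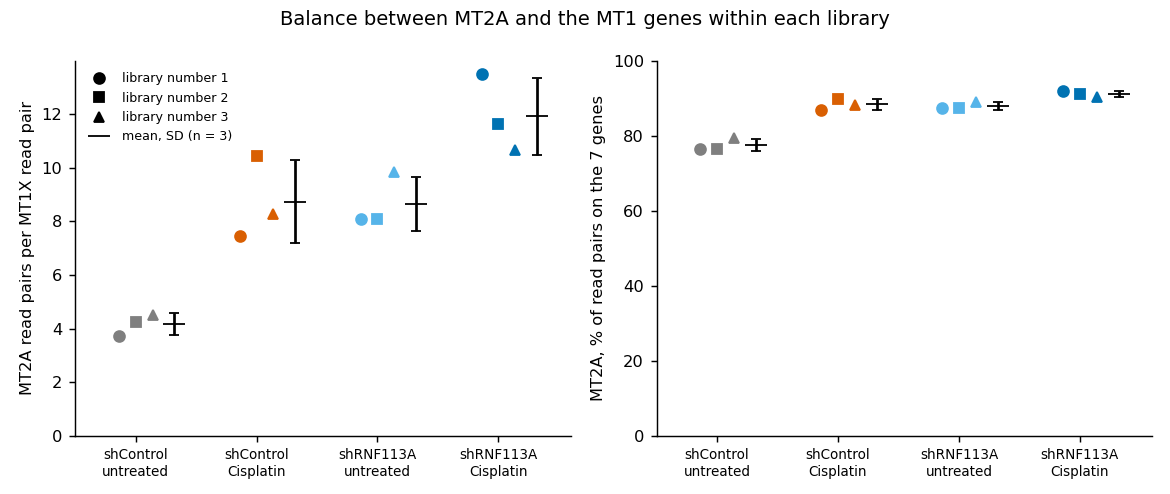
Left, MT2A read pairs per MT1X read pair in each library; right, the share of MT2A among read pairs on the 7 genes, in percent; bars give the mean and SD of 3 libraries per group. The ratio goes from 3.72 to 4.52 in untreated shControl cells to 10.6 to 13.5 in shRNF113A cells with Cisplatin.

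These counts have to be read against how many genes responded. A gene was called when its adjusted p was under 0.05 and its change at least 2-fold. Of the 3 tested members, 1 was called with Cisplatin in shControl cells (*MT1F*), where 19.8% of all tested genes were. Of the other comparisons none called a member, where 23.1% of tested genes were called with Cisplatin in shRNF113A cells, 8.66% with depletion in untreated cells, 12.3% with depletion in treated cells and 1.28% in the interaction. In the additive model 0 members were called with Cisplatin, against 21.5% of genes, and 0 with depletion, against 11.0%.

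By adjusted p alone the background was larger. With Cisplatin in shControl cells 2 of the 3 members passed (*MT2A* and *MT1F*), as did 55.0% of tested genes, and with depletion in untreated cells 1 passed (*MT2A*), as did 27.4% of genes. With Cisplatin in shRNF113A cells and with depletion in treated cells 0 passed, against 60.2% and 42.9% of genes. For the interaction 0 passed, against 4.25%. In the additive model 2 passed with Cisplatin and 1 with depletion, against 66.8% and 47.5% of genes. Where 0 members passed, 0 also passed at an unadjusted p under 0.05 and with DESeq2, whereas *MT2A* passed with other settings: with Cisplatin in shRNF113A cells by library size only (adjusted p = 0.0282), with the replicate block, without both shControl replicate 2 libraries or without untreated shRNF113A replicate 3 (adjusted p = 0.0212), and with depletion in treated cells with the block (edgeR). Passing the test was thus common among the genes of these cells.

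**Figure D4:**
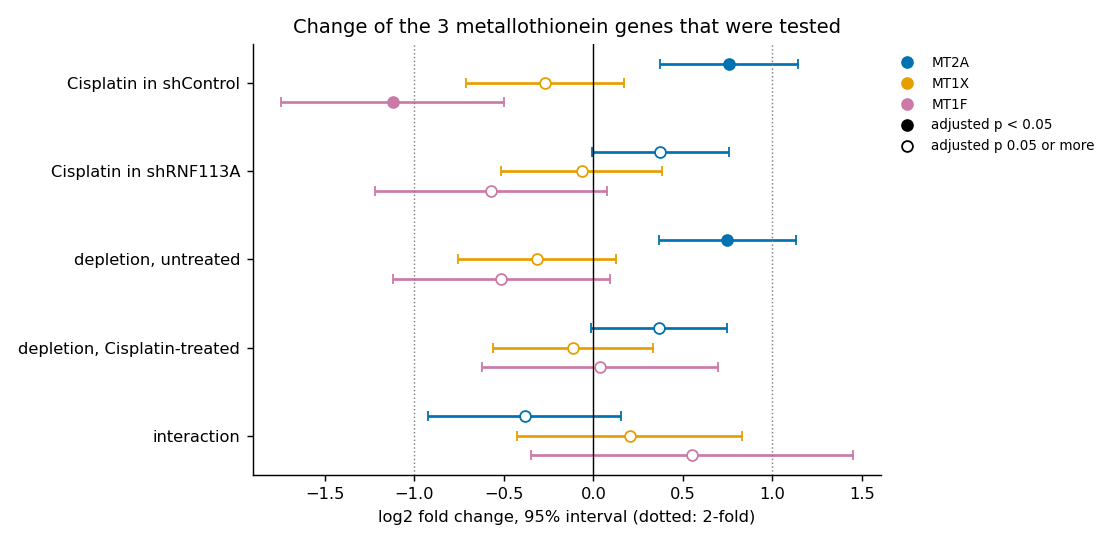
Log2 fold change of MT2A, MT1X and MT1F with its 95% interval in 4 comparisons and the interaction, with filled points for an adjusted p under 0.05 and dotted lines at 2-fold. MT2A passed with Cisplatin in shControl cells (0.76) and with depletion in untreated cells (0.75), and MT1F passed with Cisplatin in shControl cells (-1.12).

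Reads inside introns were compared with reads inside exons, since RNF113A is a spliceosome protein. Metallothionein introns are short and held few reads. *MT2A* had 0.524 ± 0.185 intronic per 100 exonic reads in untreated shControl cells, 0.613 ± 0.207 with Cisplatin, 0.941 ± 0.255 with depletion and 1.16 ± 0.184 with both (SD, n = 3). *MT1X* had 2.06 ± 0.787, 2.85 ± 1.20, 4.08 ± 1.08 and 5.59 ± 0.207 in the same order. Over all tested genes together this quantity was 4.87, 6.15, 6.59 and 11.3.

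With depletion in Cisplatin-treated cells the ratio rose for both, by 0.90 on the log2 scale for *MT2A* (SE 0.29, adjusted p = 0.00769, edgeR) and by 0.96 for *MT1X* (SE 0.38, adjusted p = 0.0232, edgeR). The median over all 11488 genes tested was 0.96 and 81.7% of them passed, so both differences lay close to that of the median gene. With depletion in untreated cells *MT2A* stood 0.81 higher (SE 0.35, adjusted p = 0.0818, edgeR) and *MT1X* 0.94 higher (SE 0.40, adjusted p = 0.0759, edgeR), where 28.4% of genes passed. The median over all genes was 0.47 there, and whether the members exceeded it was not tested. With Cisplatin neither passed, against 18.7% of genes in shControl cells and 65.4% in shRNF113A cells. Only 25 to 97 intronic reads per group stand behind *MT2A* and 24 to 39 behind *MT1X*. Without treated shControl replicate 1 neither passed with depletion in treated cells, at an adjusted p of 0.0507 for *MT2A* and 0.129 for *MT1X* (edgeR). *MT1X* also missed the threshold without shRNF113A replicate 2 with Cisplatin (adjusted p = 0.0517, edgeR) or replicate 3 (adjusted p = 0.0557, edgeR). Conversely, without treated shControl replicate 3 both passed with depletion in untreated cells (adjusted p = 0.0461 and 0.0475, edgeR). *MT1F* had too few intronic reads to be tested.

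Of 10 further genes named as metallothioneins in the counts, 2 passed the filter. *MT1DP*, a pseudogene of the cluster, had 5 to 46 counts per library, and its log2 fold change was -0.61 with Cisplatin in shControl cells (SE 0.52, adjusted p = 0.342, edgeR). In 4 of 4 groups its highest library was replicate 2, the number with the lowest *MT2A*. *MTL5*, a metallothionein-like gene expressed in testis that lies outside the cluster, rose with Cisplatin in shRNF113A cells by 0.81 on the log2 scale (adjusted p = 0.00233, edgeR) and with depletion in treated cells by 0.86 (adjusted p = 0.00307, edgeR). Of all tested genes 60.2% and 42.9% passed there. *MTL5* did not pass with Cisplatin in shControl cells (0.35, adjusted p = 0.132, edgeR) or with depletion in untreated cells (0.40, adjusted p = 0.137, edgeR). Its interaction did not pass either (adjusted p = 0.342, edgeR). The genes *MT1B*, *MT3* and *MT1L* had 7, 7 and 1 counts in all.

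The genes that act with metallothioneins are given in groups, by how many rose and fell at an adjusted p under 0.05. Of all tested genes 55.0% passed with Cisplatin in shControl cells and 60.2% in shRNF113A cells. With depletion 27.4% passed in untreated and 42.9% in treated cells. These shares, and the all-gene medians given in this paragraph, apply to every list below. Of 7 transcription factors known at metallothionein promoters, 4 rose and 1 fell with Cisplatin in shControl cells, and the median of the list was 0.26 on the log2 scale, beside -0.01 for all tested genes. *MTF1* itself, named here after its values were seen, went from 24.6 ± 1.31 to 34.8 ± 0.828 CPM (SD, n = 3), a rise of 0.50 on the log2 scale (SE 0.07, adjusted p = 7.76e-05, edgeR). Depletion left *MTF1* in untreated cells at 24.6 ± 1.10 CPM, a log2 difference of 0.00028 (SE 0.07, adjusted p = 0.999, edgeR). *STAT3*, a cytokine-activated factor, rose by 1.32 on the log2 scale with Cisplatin in shControl cells (adjusted p = 2.37e-07, edgeR). *NR3C1*, the glucocorticoid receptor, fell by 0.55 with Cisplatin in shRNF113A cells (adjusted p = 0.000622, edgeR) and by 0.65 with depletion in treated cells (adjusted p = 0.000476, edgeR), on the log2 scale. Of the 7 factors 3 rose and 3 fell with Cisplatin in shRNF113A cells (median -0.20, beside 0.06 for all genes). With depletion 2 rose and 1 fell in untreated cells (median 0.00028, beside 0.0028) and 2 rose and 4 fell in treated cells (median -0.33, beside -0.01).

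Zinc exporters move zinc out of the cytosol, and *SLC30A1*, the exporter of the plasma membrane, is a known MTF1 target beside the metallothioneins. It was at 36.6, 37.6 and 36.5 CPM in untreated shControl cells and at 110, 132 and 118 CPM with Cisplatin. It was at 56.4, 60.4 and 55.3 CPM in untreated shRNF113A cells and at 115, 115 and 121 CPM with Cisplatin. *SLC30A1* rose 3.25-fold with Cisplatin in shControl cells (adjusted p = 5.68e-09, edgeR), 2.04-fold in shRNF113A cells (adjusted p = 2.97e-07, edgeR) and 1.56-fold with depletion in untreated cells (adjusted p = 9.31e-05, edgeR). With depletion in treated cells it differed by -0.04 on the log2 scale (SE 0.07, adjusted p = 0.698, edgeR). Its interaction of -0.68 passed the test (SE 0.11, adjusted p = 0.00979, edgeR), whereas that of *MT2A* did not. The estimates for *SLC30A1* and *MT2A* had the same sign in these comparisons except with depletion in treated cells, and whether the 2 genes differed from each other was not tested.

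Of 8 zinc exporters tested, 4 rose and 2 fell with Cisplatin in shControl cells and 5 rose and 2 fell in shRNF113A cells, with medians of 0.15 and 0.41 on the log2 scale. With depletion 1 rose and 3 fell in untreated cells and likewise in treated cells, with medians of -0.15 and -0.22. The shares of all tested genes that passed were 55.0% and 60.2% with Cisplatin and 27.4% and 42.9% with depletion. *SLC30A3*, which loads zinc into vesicles, rose 2.36-fold with Cisplatin in shRNF113A cells (adjusted p = 4.28e-05, edgeR) and fell by 1.26 on the log2 scale with depletion in untreated cells (adjusted p = 0.000194, edgeR). *SLC30A10* rose with Cisplatin in both populations, from levels near the limit of 3 counts.

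Of 12 zinc importers tested, 2 rose and 5 fell with Cisplatin in shControl cells and 4 rose and 5 fell in shRNF113A cells, with medians of -0.15 and -0.10 on the log2 scale. *SLC39A11* fell by 4.15 on the log2 scale in shControl cells (adjusted p = 4.16e-09, edgeR) and by 4.17 in shRNF113A cells (adjusted p = 6.19e-09, edgeR), from 34.7 ± 7.89 to 1.95 ± 0.124 CPM in the former (SD, n = 3). *SLC39A8*, which carries zinc and manganese, rose 2.37-fold with depletion in untreated cells (adjusted p = 1.71e-05, edgeR) and 1.87-fold in treated cells (adjusted p = 0.00013, edgeR). With Cisplatin it fell by 0.66 on the log2 scale in shRNF113A cells (adjusted p = 0.000354, edgeR). *SLC39A10* fell by 1.10 with Cisplatin in shRNF113A cells (adjusted p = 2.07e-06, edgeR). *SLC39A2* had 0 to 0.0481 CPM in 9 libraries and 0.433 to 1.16 CPM in shRNF113A cells with Cisplatin. With depletion 1 importer rose and 0 fell in untreated cells (2 and 0 at an unadjusted p under 0.05, edgeR), and 5 rose and 2 fell in treated cells, with medians of 0.07 and 0.27. Beside the importers, 55.0% and 60.2% of all tested genes passed with Cisplatin and 27.4% and 42.9% with depletion.

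Of 7 genes of the heavy metal and oxidant response, *SLC30A1* included, 1 rose and 3 fell with Cisplatin in shControl cells, with a median of -0.27 on the log2 scale. *HMOX1*, heme oxygenase, fell by 1.03 on the log2 scale in shControl cells (adjusted p = 0.000265, edgeR) and by 1.05 in shRNF113A cells (adjusted p = 0.000209, edgeR), and *GCLC*, a subunit of the enzyme that starts glutathione synthesis, fell by 1.14 (adjusted p = 4.52e-06, edgeR) and by 0.61 (adjusted p = 0.000581, edgeR). With depletion in untreated cells 1 of the 7 rose and 4 fell (median -0.42). With Cisplatin in shRNF113A cells 3 rose and 2 fell (median 0.16), and with depletion in treated cells 1 rose and 1 fell (median -0.15). Among all tested genes 55.0% and 60.2% passed with Cisplatin in shControl and shRNF113A cells. With depletion 27.4% and 42.9% passed in untreated and treated cells. *MT2A* and *SLC30A1* rose with Cisplatin in shControl cells, then, while *HMOX1* and *GCLC* fell.

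**Figure D5:**
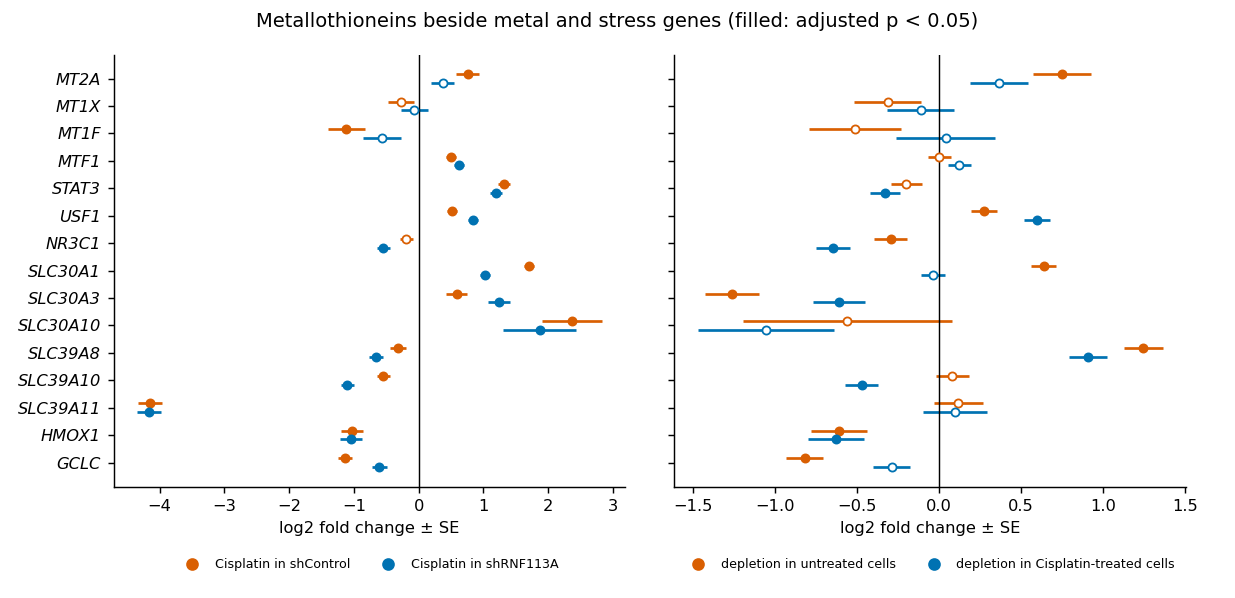
Log2 fold change and SE of the 3 tested metallothioneins, factors at their promoters (MTF1, STAT3, USF1, NR3C1), zinc transporters (SLC30A and SLC39A genes) and 2 oxidant response genes, for Cisplatin (left) and depletion (right), with filled points for an adjusted p under 0.05. SLC30A1 rose by 1.70 with Cisplatin in shControl cells beside 0.76 for MT2A, while HMOX1 fell by 1.03.

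Glucocorticoid receptor targets moved in both directions. Of 8 tested, 3 rose and 3 fell with Cisplatin in shControl cells and 4 rose and 3 fell in shRNF113A cells, with medians of 0.07 and 0.33 on the log2 scale. With depletion 0 rose and 1 fell in untreated cells (1 and 2 at an unadjusted p under 0.05, edgeR), and 2 rose and 3 fell in treated cells, with medians of -0.16 and -0.17. The shares over all tested genes were 55.0% and 60.2% with Cisplatin and 27.4% and 42.9% with depletion. *PER1*, a clock gene, and *TSC22D3* rose 2.89-fold (adjusted p = 2.42e-07, edgeR) and 2.02-fold (adjusted p = 1.06e-05, edgeR) with Cisplatin in shControl cells. *FKBP5* fell by 0.83 (adjusted p = 0.00186, edgeR) and *CEBPD* by 1.00 (adjusted p = 0.00343, edgeR) there on the log2 scale. *KLF9* fell by 1.12 with depletion in untreated cells (adjusted p = 0.000142, edgeR).

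Of 8 tested genes on either side of the metallothionein cluster, 1 rose and 3 fell with Cisplatin in shControl cells and again in shRNF113A cells. *OGFOD1*, an oxygenase gene that begins 156.7 kb before *MT2A*, rose 2.02-fold with Cisplatin in shControl cells (adjusted p = 2.42e-06, edgeR). *GNAO1*, a G protein gene at the outer end of that list, fell there (adjusted p = 0.00127, edgeR) from 0.239 to 0.47 CPM to 0.024 to 0.0526 CPM, below the limit of 3 counts, so that the size of its fall is not given. With depletion 0 rose and 0 fell in untreated cells, and 0 rose and 1 fell in treated cells, and the counts at an unadjusted p under 0.05 were the same (edgeR). By adjusted p, 55.0% and 60.2% of all tested genes passed with Cisplatin and 27.4% and 42.9% with depletion. The medians of the neighbours were -0.16 and -0.33 with Cisplatin and -0.02 and -0.07 with depletion, on the log2 scale.

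Among the genes whose levels followed *MT2A* most closely over the 12 libraries, of 9778 with a mean of at least 10 CPM, were *PRDX6* (r = 0.957), *NDUFA12* (0.945), *UTP14A* (0.944) and *RPS4X* (0.937), by Pearson's r of log2 CPM. The 12 points share the 4 groups and the scaling, so these values describe likeness and no more. *PRDX6*, an antioxidant peroxiredoxin, was at 302 to 325 CPM in untreated shControl cells and at 378 to 422 CPM in shRNF113A cells with Cisplatin, a narrow range beside that of *MT2A*. *UTP14A*, needed for ribosome assembly, was at 61.8 to 78.1 and 124 to 142 CPM in the same groups. *NDUFA12*, a subunit of respiratory complex I, was at 60.4 to 67.3 and 85.0 to 101 CPM. *RPS4X*, a ribosomal protein gene, was at 1488 to 1555 and 1710 to 1965 CPM. Ranked by Spearman's rho, *PRDX6*, *UTP14A* and *RPS4X* stayed among the nearest 5.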

How the data were processed

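Total RNA of 12 A549 cultures was sequenced as stranded paired-end mRNA libraries. Per the study's methods and the submitters' processing notes, the authors demultiplexed with bcl2fastq 2.17, removed rRNA, tRNA and mitochondrial reads, trimmed to 73 bases, aligned to hg19 with STAR 2.5.2b and deposited raw counts of read pairs per gene. They also deposited HTSeq counts of exonic and whole-gene reads on Gencode v19. Rows that name no gene (14.0% to 22.6% of read pairs) were left out.

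The counts on the gene's strand were tested with edgeR 4.0.16 (R 4.3.3), with TMM scaling, filterByExpr and quasi-likelihood F tests, and Benjamini-Hochberg adjustment ran over all 15352 genes. The study's additive model of drug and depletion and a model of the 4 groups were fitted over all 12 libraries. Intronic reads (whole-gene minus exonic) were set against exonic reads with a term per library, over 11488 genes. Intervals are 95%. The models were tested on simulated data. The alternatives were other scalings, filters, unstranded counts, DESeq2 1.42.0, limma 3.58.1, a replicate block, leaving out each library and, chosen after seeing the data, leaving out both shControl replicate 2 libraries. Pairing was checked by correlating deviations from group means over 9779 genes: equal numbers went together in 3 of 3 pairs between the 2 shControl groups (r = 0.631, 0.730 and 0.479) and in 2 of 3 between the 2 shRNF113A groups (0.399, -0.064 and 0.299). No other 2 groups had r over 0.1 in every pair, so pairing had a basis in every pair for the shControl groups only. The main tests used no pairing, also for Cisplatin in shControl cells, and the block served as an alternative only. The p-values rest on 1 estimate of the spread per gene, shared by all 12 libraries. Libraries outside a comparison therefore also bear on its p-value. The study calls the 3 libraries of a group biological replicates. All pairs of replicates differed beyond sampling noise.

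The members and the gene lists were chosen with earlier results of these data known. The text names the 7 members, RNF113A, the 5 genes most like MT2A (1 of them is not reported here), and listed genes that were called or were at the top or bottom of a list, with MTF1, the smaller genes of the family and markers added after their values were seen. The deposited tables of splicing comparisons were not used here.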

Additional observations from a re-analysis of the deposited data

Results flagged for a closer look

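The response of *SLC30A1*, the zinc exporter known as an MTF1 target, to Cisplatin differed between shRNF113A and shControl cells by a test of the difference itself. The log2 difference was -0.68 (SE 0.11, adjusted p = 0.00979, edgeR), with an adjusted p of 0.00557 to 0.0365 when each library was left out. No interaction passed for *MT2A*, *MT1X* or *MT1F*. Dixon's test was not applied to single values in groups of 3 libraries. Over all genes, replicate 2 of both shControl groups stood apart, with a chi-square per degree of freedom of 63.5 to 96.0 against 4.06 to 18.1 for the other pairs of one group, and in 4 of 4 groups replicate 2 had the lowest *MT2A* and *MT1X*.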

How the results depend on the processing

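The level of *MT2A* kept its direction in every alternative fit of each comparison and passed with Cisplatin in shControl cells and with depletion in untreated cells under each of them, library left out included. With Cisplatin in shRNF113A cells it also passed with scaling to library size only (adjusted p = 0.0282), with a replicate block (adjusted p = 0.0047) and without untreated shRNF113A replicate 3 (adjusted p = 0.0212), and with depletion in treated cells it passed with the block alone (adjusted p = 0.0122, edgeR). Equal numbers deviated together in every pair of the 2 shControl groups, where the block changed no call, and in 2 of 3 pairs of the 2 shRNF113A groups, so whether the block applies to the latter is not settled. Between the 2 treated groups they did not (r = -0.197, 0.091 and -0.017), so the block has no such basis for depletion in treated cells. In the 6 shControl libraries alone, an alternative added after seeing the data, *MT2A* rose by 0.77 with the block. Without both shControl replicate 2 libraries *MT2A* also passed with Cisplatin in shRNF113A cells (adjusted p = 0.0317), *MT1X* with depletion in untreated cells (adjusted p = 0.0487) and in the additive model (adjusted p = 0.0266, edgeR), and the interaction called 522 genes in place of 196. Without untreated shControl replicate 2, both shControl replicate 2 libraries or treated shControl replicate 3, 0 members were called with Cisplatin in shControl cells instead of 1, and the range over all libraries left out was 0 to 1.

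With no limit on the fold, 2 members passed in place of 0 with Cisplatin in the additive model, 1 in place of 0 with depletion in that model, 2 in place of 1 with Cisplatin in shControl cells and 1 in place of 0 with depletion in untreated cells. For the intronic ratio, requiring 10 reads of each class in every library left 0 members to test, and leaving out 1 library gave 0 to 2 members with depletion in treated cells and 0 to 2 with depletion in untreated cells. By the longest transcript *MT1E* was rank 5 and *MT1M* rank 6, at 2 counts each, and 3 of the 5 genes most like *MT2A* were kept by Spearman's rho.

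Signs turned where an estimate was near 0. *MT1F* with depletion in treated cells was -0.00015 with median-ratio scaling, -1.82e-05 with DESeq2 and -0.18 to 0.15 over the libraries left out. *MT1X* with Cisplatin in shRNF113A cells was 0.026 by library size only and -0.25 to 0.015 over the libraries left out, its interaction was -0.018 to 0.29, and the intronic ratio of *MT2A* with Cisplatin in shControl cells was -0.050 to 0.56. The causes were not tested. *MT1X* passed with depletion in the additive model without treated shControl replicate 2 (log2 change -0.33, adjusted p = 0.0443, edgeR). A minimum of 10 counts in every library lowered the count of all called genes by over 1.5 times in 4 comparisons: from 3298 to 2121 with Cisplatin and from 1687 to 824 with depletion in the additive model, from 1329 to 789 with depletion in untreated cells and from 1891 to 1103 in treated cells, with fewer genes tested. For the interaction the 196 called genes became 75 without untreated shRNF113A replicate 1 and 420 without untreated shControl replicate 2, the lowest and highest over the libraries left out, and 0 members passed in any of these fits. Depth limits *MT1A*, *MT1E*, *MT1G* and *MT1M*, which no group shows above a few counts.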
